A study of Homo sapiens with 192 samples.

Results

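The expression of 10 genes of cellular iron handling was followed in colorectal cancer (CRC) cell lines grown in 2D or in 3D culture. The genes were fixed by name (TFRC, TF, STEAP3, SLC11A2, FTH1, FTL, NCOA4, SLC40A1, ACO1 and IREB2) and found by their Ensembl identifiers among the 58243 genes counted. They, and the lists of iron genes set beside them, were chosen with earlier results of these data known. Counts of called genes set against the share of all genes are therefore a description only. All 10 were in the count tables, and 9 of them had enough counts to be tested. TF, which encodes the serum iron carrier transferrin, was not tested, and SLC40A1 passed the filter on low counts only through HT29, the line in which it was high.

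The cells were the established human CRC lines HT29, LS513, HCT116 and LS174T. Each line was grown in 2D and in 3D, and 3 libraries of polyadenylated RNA were sequenced in each of the 8 groups, which gave 24 libraries. No genotype change and no treatment is named in the labels of any group, and the sources used here give neither the culture time nor the way in which the 3D cultures for RNA sequencing were made. HCT116 was maintained in McCoy medium and the other lines in DMEM, both with fetal bovine serum, so line and medium cannot be told apart, and the iron content of the media is not given in the sources used here. The comparison of 3D with 2D within each line asks how culture geometry goes with gene expression, and each of the 4 lines is a single cell line rather than a panel of tumors. The labels do not say whether replicates were separate cultures, so the p-values measure the spread between these libraries, which may be technical.

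Library totals were between 18723942 and 34277421 counts, and 3 counts corresponded to between 0.0875 and 0.160 CPM (counts scaled to the size of the library). All 10 colorectal epithelium markers reached 1 CPM in HT29 and LS513 and 9 or 10 of them did so in LS174T, against 6 in HCT116 grown in 2D and 7 in 3D, where CDH17 stayed at 3 counts or fewer in every library. The summed level of the erythroid list was at most 14.0 CPM, that of the fibroblast list at most 22.1 CPM and that of the hepatocyte list at most 186 CPM in any library. The mitochondrial share of counts was between 1.14% and 3.48% in all libraries but HCT116 3D replicate 1, where it was 6.40%.

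Most iron reaches a proliferating cell as transferrin bound to the transferrin receptor, is reduced in the endosome by a STEAP reductase and leaves the endosome through the divalent metal transporter encoded by SLC11A2, which also takes up dietary iron at the surface of the intestinal epithelium. Inside the cell, iron is stored in a ferritin shell of heavy (FTH1) and light (FTL) chains, released again by ferritin autophagy with NCOA4 as the receptor, and exported by ferroportin (SLC40A1). The iron regulatory proteins encoded by ACO1 and IREB2 bind hairpins called iron-responsive elements when iron is scarce, which blocks translation where the hairpin is in a 5′ UTR and protects the transcript where it is in the 3′ UTR. The counts analysed here measure transcripts and carry no information on translation, on protein or on iron itself.

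The matches to the iron-responsive element in the members are shown because, for FTH1, FTL, SLC40A1 and TFRC, such elements are known as the sequences through which the iron regulatory proteins read the transcript. The match in TF is shown as a match of letters only. Annotated UTRs of coding transcripts (GENCODE 29, GRCh38) were searched on the transcript strand for a C, 5 bases, the loop CAGTGN and 5 bases able to pair with the 5 before the loop, with G-T pairs allowed. Capitals mark the loop, and all sequences run 5′ to 3′.
FTH1: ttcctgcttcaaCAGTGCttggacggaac
FTL: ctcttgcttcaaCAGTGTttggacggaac
SLC40A1: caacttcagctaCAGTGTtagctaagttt
TFRC element 1: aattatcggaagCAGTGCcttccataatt
TFRC element 2: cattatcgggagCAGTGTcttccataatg
TFRC element 3: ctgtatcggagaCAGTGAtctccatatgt
TFRC element 4: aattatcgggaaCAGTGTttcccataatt
TF: tgaatgcattttCAGTGAaagattataac

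The FTH1 (chr11:61967574-61967602, minus strand), FTL (chr19:48965335-48965363, plus strand) and SLC40A1 (chr2:189580661-189580689, minus strand) matches were in the 5′ UTR. The elements of both ferritin chains had 26 of 29 bases in common. TFRC held 4 matches in its 3′ UTR, in the order of the transcript at chr3:196050979-196051007, chr3:196050575-196050603, chr3:196050510-196050538 and chr3:196050463-196050491 on the minus strand. The match in TF (chr3:133792673-133792701, plus strand) was in the 3′ UTR of 1 transcript. Such a match was found in the 5′ UTR of 36 of 18809 coding genes (0.191%) and in the 3′ UTR of 132 of 19089 (0.691%), against 3 and 2 of the 10 members. SLC11A2, NCOA4, STEAP3, ACO1 and IREB2 had no match, which says only that these letters are not in their annotated UTRs. The search would miss an element with an unpaired base in the stem or with another loop. Whether SLC11A2 or the other members without a match hold such an element was therefore not tested. The numbers given to the TFRC elements count matches only, and further elements in TFRC were not tested for.

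Per kilobase of exon, the ferritin transcripts were the most abundant members. The median over the 24 libraries was 2180 RPKM (CPM for each kilobase of exon) for FTL and 820 RPKM for FTH1, followed by 90.5 RPKM for TFRC, 38.1 RPKM for NCOA4 and 18.3 RPKM for STEAP3. ACO1, IREB2 and SLC11A2 had medians of 9.59, 7.68 and 7.11 RPKM, and SLC40A1 one of 0.0653 RPKM. These medians pool lines of different level and do not hold as an order in each line: in HT29 grown in 3D, SLC40A1 had a mean of 33.8 RPKM, above ACO1 at 5.66 RPKM and STEAP3 at 3.87 RPKM. With the length of the longest transcript in place of all exons, SLC11A2 (16.6 RPKM) came before IREB2 (13.1 RPKM) and ACO1 (9.70 RPKM), and the other members kept their places in the order. Library by library, FTL and FTH1 together took between 0.212% and 0.602% of all counts, the lowest share in LS513 and the highest in HT29, both grown in 2D.

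In the comparison of 3D with 2D growth, members were called at an adjusted p under 0.05 in edgeR's quasi-likelihood test, with p-values adjusted by the Benjamini-Hochberg method over 19387 genes. In HT29, 4 of the 8 tested members other than SLC40A1 were called, 1 higher and 3 lower in 3D, where 40.7% of all tested genes were called, 21.1% higher and 19.6% lower. SLC40A1 was also called higher in HT29 but is left out of these counts, since it passed the filter only through that line. In LS513, 5 of these 8 members were called and all 5 were higher, where 23.6% of all genes were called, 13.7% higher and 9.9% lower. In HCT116, 3 members were called, 1 higher and 2 lower, with 29.1% of all genes called, 16.8% higher and 12.3% lower. In LS174T, 1 member was called and it was higher, with 22.2% of all genes called, 13.1% higher and 9.15% lower. Of the 8 tested members other than SLC40A1, whose counts outside HT29 were too low to be read, the 2D and 3D libraries did not overlap for 5 in HT29 (52.9% of all genes), 5 in LS513 (42.9%), 3 in HCT116 (40.4%) and 3 in LS174T (38.5%). No member was called in the same direction in all 4 lines, where 3.14% of all genes were higher and 2.46% lower in all 4. TFRC, FTH1 and ACO1 were higher in 3D in 1 line and lower in another, a pattern found in 2.88% of all genes, and NCOA4 and STEAP3 were called in none of the lines. With the study's further cutoffs on the log2 fold change, under -0.5 or over 1.5, the calls left were SLC11A2 and IREB2 in HT29 (17.4% of all genes), SLC11A2 in LS513 (8.03%) and IREB2 in HCT116 (9.28%), and no edgeR call of a member was left in LS174T (7.26%). The same 8 members had a median log2 fold change of -0.05 in HT29 and 0.43 in LS513, against 0.03 in HCT116 and -0.07 in LS174T, with that of all genes between 0.00 and 0.02. In these bulk libraries a change in the share of cells that hold a transcript and a change in its level per cell cannot be told apart.

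**Figure D1:**
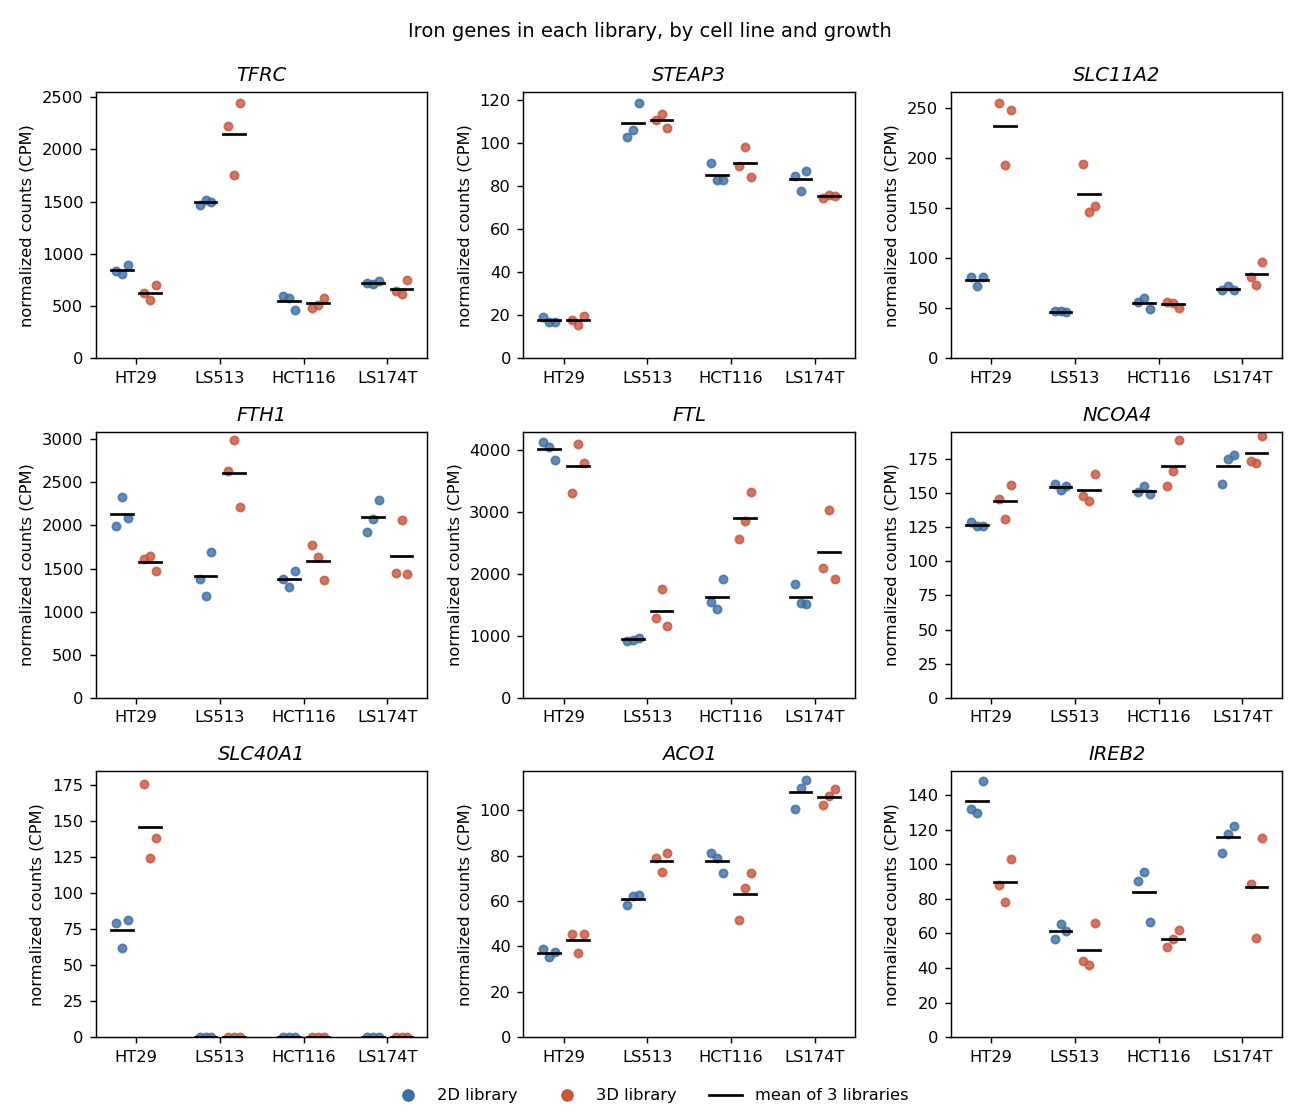
Normalized counts (CPM, linear axes from 0) of the 9 tested iron genes in each library, by cell line and growth, with a bar at the mean of 3 libraries. SLC11A2 stands apart in the 3D libraries of HT29 and LS513, and SLC40A1 lies near 0 outside HT29.

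The growth effects of the 9 genes are drawn together by line, on the log2 scale, so that the members that moved in opposite directions in HT29 and LS513 can be read against those that moved one way.

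**Figure D2:**
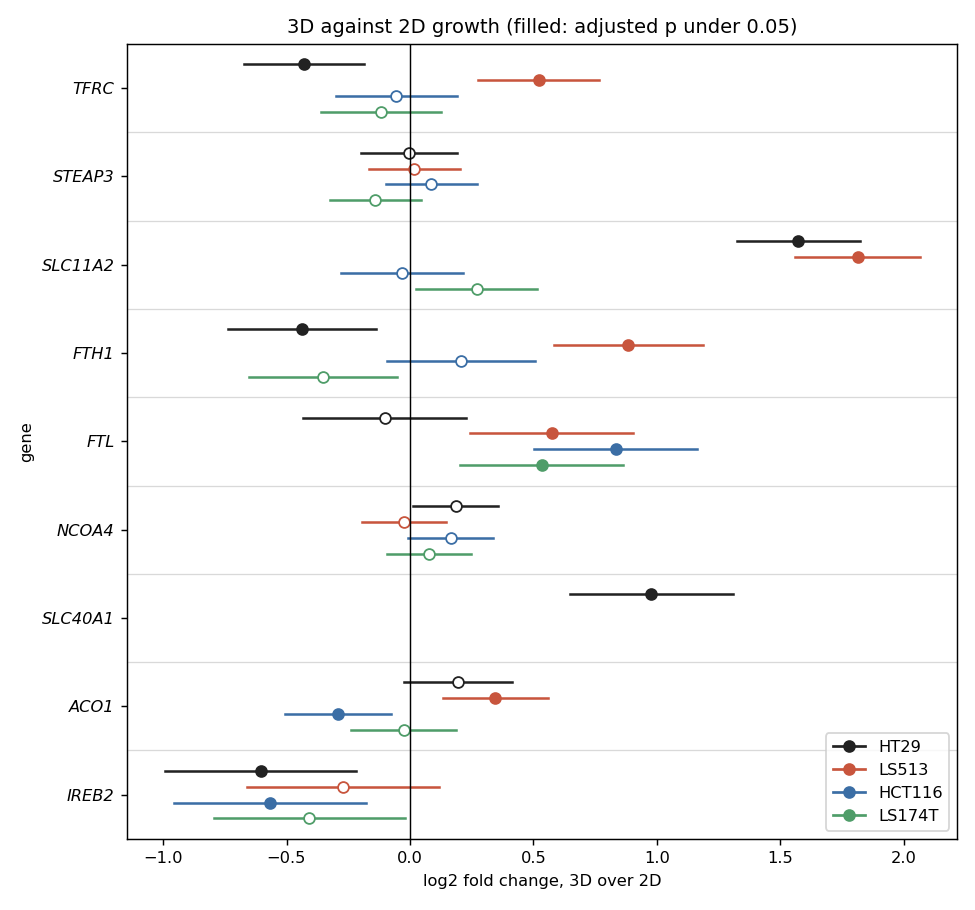
Log2 fold change of 3D over 2D for each tested iron gene in each line, with its 95% interval, filled where the adjusted p was under 0.05. TFRC and FTH1 lie below 0 in HT29 and above 0 in LS513, SLC11A2 lies above 1.5 in both of these lines, and SLC40A1 is drawn for HT29 only, since its counts elsewhere were 13 or fewer.

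Iron uptake was represented by TFRC, TF, STEAP3 and SLC11A2. TFRC (ENSG00000072274, chr3:196027183-196082189, minus strand), the transferrin receptor, fell in HT29 and rose in LS513. In HT29 it was at 809, 839 and 894 CPM in 2D and at 556, 626 and 705 CPM in 3D. All 3D libraries of HT29 were below all of its 2D libraries, and the log2 fold change was -0.43 ± 0.12 (SE, adjusted p = 0.0059). In LS513 it was at 1466, 1499 and 1515 CPM in 2D and at 1754, 2227 and 2448 CPM in 3D. Here all 3D libraries were above the 2D libraries and spread more widely, with a log2 fold change of 0.52 ± 0.12 (adjusted p = 0.0023).

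In HCT116, TFRC was at 462, 575 and 599 CPM in 2D and at 482, 514 and 577 CPM in 3D, and in LS174T at 709, 719 and 742 CPM in 2D and at 612, 641 and 747 CPM in 3D. The growth conditions overlapped in both lines, and the log2 fold changes were -0.06 (95% interval -0.30 to 0.19, adjusted p = 0.78) and -0.12 (-0.36 to 0.13, adjusted p = 0.51). LS513 had the highest TFRC level of the 4 lines in 2D, at 1493 ± 24.8 CPM (SD, n = 3), and in 3D, at 2143 ± 354 CPM. HT29 (847 ± 42.9 CPM) and LS174T (723 ± 16.7 CPM) followed in 2D and did not differ beyond their spread (adjusted p = 0.096), and HCT116 was the lowest. In 3D, LS174T and HT29 (adjusted p = 0.55) and HT29 and HCT116 (adjusted p = 0.053) did not pass the test.

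SLC11A2 (ENSG00000110911, chr12:50979401-51028566, minus strand), the divalent metal transporter, had the largest growth effects of the tested members in HT29 and in LS513. In HT29 it was at 72.3, 80.9 and 81.0 CPM in 2D and at 193, 248 and 255 CPM in 3D. In LS513 the 2D libraries lay within 45.7 and 47.4 CPM, and the 3D libraries were at 146, 152 and 194 CPM. In neither line did the growth conditions come near each other: the mean rose from 78.1 ± 4.97 to 232 ± 34.1 CPM (SD, n = 3) in HT29 and from 46.6 ± 0.825 to 164 ± 26.0 CPM in LS513. The log2 fold changes were 1.57 ± 0.12 (SE, adjusted p = 2.4e-09) and 1.81 ± 0.12 (adjusted p = 8.2e-10).

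In LS174T, SLC11A2 was at 68.0, 68.2 and 72.0 CPM in 2D and at 73.5, 81.2 and 96.4 CPM in 3D. These libraries did not overlap, but the log2 fold change of 0.27 ± 0.12 did not pass the test over all genes (95% interval 0.03 to 0.52, adjusted p = 0.10). In HCT116 it was at 48.8, 56.0 and 60.3 CPM in 2D and at 49.8, 55.0 and 56.5 CPM in 3D, with a log2 fold change of -0.03 (-0.28 to 0.21, adjusted p = 0.89). The order of the lines changed with growth. In 2D, HT29 was followed by LS174T (69.4 CPM, adjusted p = 0.22 against HT29), HCT116 (55.0 CPM) and LS513 (adjusted p = 0.080 against HCT116), whereas in 3D LS513 was second to HT29 and every neighbour in the order differed. The gene-level counts do not separate the transcripts of SLC11A2 with different 3′ ends.

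STEAP3 (ENSG00000115107, chr2:119223831-119265652, plus strand), the endosomal ferrireductase, differed between lines and was not called between growth conditions in any of them. Its HT29 libraries were between 15.6 and 19.5 CPM in all 6 libraries, and in the other lines between 74.6 and 118 CPM in all 18. The STEAP3 levels of HT29 and of the other lines therefore did not overlap, and in 2D HT29 (17.7 ± 1.42 CPM) differed from the next line, LS174T (83.1 ± 4.65 CPM), by 2.23 ± 0.10 on the log2 scale (adjusted p = 9.2e-16). LS513 was the highest, at 109 CPM in 2D and 110 CPM in 3D, while HCT116 and LS174T did not differ in 2D (adjusted p = 0.73). The 95% intervals of its log2 fold change with growth lay between -0.32 and 0.27 over the 4 lines. STEAP3 shares 500 exon bases with STEAP3-AS1 on the opposite strand, which had 72 counts in the 24 libraries against 54946 for STEAP3.

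TF (ENSG00000091513, chr3:133745956-133796640, plus strand) had 20 counts in the 24 libraries together. It was at 0 in 16 libraries and had at most 4 counts in any 1 library, and 16 of the 20 counts were in HCT116. The level was thus at or near the floor of 3 counts in all groups, and no difference could be tested. The hepatocyte marker ALB, made like transferrin mostly by the liver, was at 3 counts or fewer in each library of HT29, LS513 and LS174T. In HCT116 ALB reached 10 counts in a 2D library and 4 counts in a 3D library. SERPINA1 of the same list was at 146 ± 37.5 CPM in 2D and 133 ± 13.8 CPM in 3D in HT29 (SD, n = 3). In the other lines its group means were at most 9.57 CPM.

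Iron storage was represented by both ferritin chains and NCOA4. FTH1 (ENSG00000167996, chr11:61959718-61967660, minus strand), the ferroxidase chain, fell in HT29 and rose in LS513, as did TFRC. In HT29 it was at 1990, 2083 and 2331 CPM in 2D and at 1473, 1615 and 1640 CPM in 3D, and in LS513 at 1183, 1376 and 1689 CPM in 2D and at 2214, 2629 and 2996 CPM in 3D. The growth conditions did not overlap in either line. The log2 fold change was -0.44 ± 0.14 (SE, adjusted p = 0.019) in HT29 and 0.88 ± 0.15 (adjusted p = 1.1e-04) in LS513. The call in HT29 was lost without 2D replicate 2 (adjusted p = 0.080) or 3D replicate 4 (adjusted p = 0.069).

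In HCT116, FTH1 was at 1285, 1376 and 1468 CPM in 2D and at 1364, 1633 and 1770 CPM in 3D, and the overlapping libraries gave a log2 fold change of 0.21 (95% interval -0.09 to 0.51, adjusted p = 0.31). In LS174T it was at 1929, 2077 and 2298 CPM in 2D, and 3D replicate 2, at 2066 CPM, lay among these while the other 3D libraries were at 1434 and 1445 CPM. The log2 fold change there was -0.35 ± 0.14 (adjusted p = 0.084), and it was -0.54 (adjusted p = 0.012) without 3D replicate 2. Over all runs with 1 LS174T library left out, it ranged from -0.54 to -0.26, with adjusted p up to 0.26. HT29 and LS174T had like FTH1 levels in 2D (2135 and 2101 CPM, adjusted p = 0.91), as did LS513 and HCT116 (1416 and 1376 CPM, adjusted p = 0.83). In 3D LS513 was the highest and the other lines lay between 1576 and 1648 CPM.

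FTL (ENSG00000087086, chr19:48965301-48966878, plus strand), the light chain that fosters mineralization of the iron core, rose in LS513, HCT116 and LS174T. In HCT116 it was at 1437, 1545 and 1908 CPM in 2D and at 2554, 2845 and 3315 CPM in 3D. All 3D libraries of HCT116 were above all 2D libraries, and the log2 fold change was 0.83 ± 0.16 (SE, adjusted p = 4.6e-04). In LS513 it was at 917, 934 and 970 CPM in 2D and at 1152, 1294 and 1757 CPM in 3D, with a log2 fold change of 0.58 ± 0.16 (adjusted p = 0.011). In LS174T it was at 1506, 1523 and 1827 CPM in 2D and at 1920, 2087 and 3026 CPM in 3D, with a log2 fold change of 0.53 ± 0.16 (adjusted p = 0.020).

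The FTL calls in LS513 and LS174T rested in part on the replicate 2 libraries grown in 3D, which were the highest of their groups. Without them, the log2 fold change was 0.38 (adjusted p = 0.12) in LS513 and 0.32 (adjusted p = 0.17) in LS174T, and the call in LS174T was also lost without 2D replicate 2 (adjusted p = 0.074) or 2D replicate 3 (adjusted p = 0.081). In HT29 FTL was the highest of the 4 lines, at 3833, 4050 and 4129 CPM in 2D and at 3310, 3792 and 4090 CPM in 3D. These libraries overlapped, and the log2 fold change was -0.10 (95% interval -0.43 to 0.23, adjusted p = 0.66). HCT116 and LS174T did not differ in FTL level in 2D (adjusted p = 0.97) or in 3D (adjusted p = 0.091), and LS513 was the lowest in both.

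The number of FTL counts for each FTH1 count moved with growth in HCT116 and LS174T. It was 1.12, 1.12 and 1.30 in the 2D libraries and 1.44, 1.74 and 2.43 in the 3D libraries of HCT116, and 0.656, 0.733 and 0.947 in the 2D libraries and 1.34, 1.44 and 1.47 in the 3D libraries of LS174T. In both lines every 3D library had more FTL relative to FTH1 than every 2D library. In HT29 the ratio was between 1.74 and 2.08 in 2D and between 2.05 and 2.57 in 3D, and in LS513 between 0.574 and 0.790 in 2D and between 0.492 and 0.587 in 3D, with overlap in each. These are ratios of counts, not corrected for length, so only their differences between libraries can be read.

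**Figure D3:**
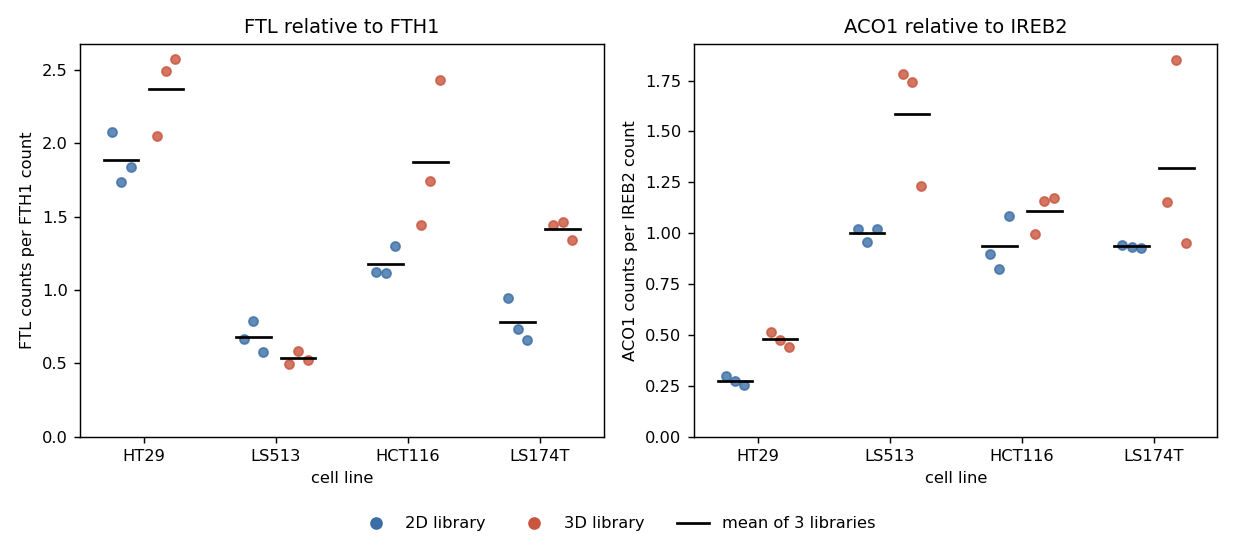
Counts of FTL for each count of FTH1 (left) and of ACO1 for each count of IREB2 (right) in each library, by cell line and growth, on linear axes from 0 with a bar at the mean of 3 libraries. The ratio of FTL to FTH1 counts of the 3D libraries lies above that of all 2D libraries in HCT116 and LS174T, and the ratio of ACO1 to IREB2 counts does so in HT29, LS513 and, narrowly, LS174T.

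Ferritin transcripts share sequence with processed pseudogenes, and reads that aligned more than once were removed before counting. The 25 FTH1 pseudogenes had 2107 counts against 1309673 for FTH1, or between 0.118% and 0.218% of FTH1 per library, and the 16 FTL pseudogenes had 2037 counts against 1653617 for FTL, or between 0.0964% and 0.253%. How many ferritin reads were lost as aligning more than once was not tested, so that the levels of both chains may be too low. FTH1 also shares 62.4% of its exon bases with BEST1 on the opposite strand. BEST1 had 23601 counts, and since the libraries were stranded but the strand option of the counting is not given in the sources used here, the division of reads between the genes was not tested.

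NCOA4 (ENSG00000266412, chr10:46005088-46030714, minus strand), the receptor that delivers ferritin to the lysosome, had the narrowest range of the tested members. It was between 126 and 192 CPM in all 24 libraries. In HT29 it was at 126, 126 and 129 CPM in 2D and at 131, 145 and 156 CPM in 3D, which did not overlap, but the log2 fold change of 0.19 ± 0.08 (SE) did not pass the test (adjusted p = 0.078). The log2 fold changes in LS513, HCT116 and LS174T were -0.02, 0.16 and 0.08, with adjusted p of 0.91, 0.14 and 0.54. In 2D HT29 had the lowest NCOA4 level and differed from the next line, HCT116 (127 and 152 CPM, adjusted p = 0.0076), and in 3D no neighbours in the order passed the test.

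SLC40A1 (ENSG00000138449, chr2:189560579-189583758, minus strand), the iron exporter ferroportin, was high in HT29 and near the floor in the other lines. Its raw counts were between 1491 and 5830 in the 6 libraries of HT29 and between 0 and 13 in the 18 libraries of LS513, HCT116 and LS174T, with a median of 7.5. The HT29 libraries were at 61.8, 79.4 and 81.6 CPM in 2D and at 125, 138 and 176 CPM in 3D. The 3D libraries were all above the 2D libraries, and the mean went from 74.3 ± 10.9 to 146 ± 26.4 CPM (SD, n = 3), a log2 fold change of 0.98 ± 0.16 (SE, adjusted p = 4.6e-05). In the other lines the highest library was at 0.450 CPM, a level at which a growth effect was not detectable.

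Ferroportin is also a gene of macrophages, and the macrophage list was therefore read beside it. In HT29 the summed level of its 8 genes was between 1327 and 1436 CPM in 2D and between 2436 and 2687 CPM in 3D, nearly all of it from LYZ (lysozyme, also made by intestinal epithelium), at 1373 ± 57.2 CPM in 2D and 2549 ± 131 CPM in 3D. CD68 was at 5.97 ± 1.42 CPM in 2D and 13.5 ± 2.12 CPM in 3D, CD14 at 6.11 ± 1.13 and 12.6 ± 2.53 CPM and ITGAM at 1.43 ± 0.707 and 2.41 ± 0.244 CPM (SD, n = 3). For LYZ and for each of these 3 genes all 3D libraries of HT29 were above all of its 2D libraries, as they were for SLC40A1. The 2D and 3D libraries of HT29 did not overlap for 52.9% of all tested genes. CD68 also rose in 3D where SLC40A1 was near the floor, from 19.3 to 77.9 CPM in LS513, 10.9 to 41.3 CPM in HCT116 and 3.01 to 5.69 CPM in LS174T. CD14 and ITGAM were under 1 CPM in these lines. The remaining 4 genes of the list, PTPRC, CD163, CSF1R and MARCO, were at 2 counts or fewer in every HT29 library. The part of these genes in the SLC40A1 result was not tested.

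Iron sensing was represented by ACO1 and IREB2. ACO1 (ENSG00000122729, chr9:32384603-32454769, plus strand) encodes iron regulatory protein 1, which is a cytosolic aconitase while it holds an iron-sulfur cluster. It rose in LS513, from 58.3, 62.4 and 62.5 CPM in 2D to 72.9, 78.9 and 81.0 CPM in 3D, with a log2 fold change of 0.35 ± 0.10 (SE, adjusted p = 0.017) and no overlap between libraries. In HCT116 it was at 72.4, 78.8 and 81.1 CPM in 2D and at 51.7, 65.6 and 72.5 CPM in 3D. The highest 3D library there was just above the lowest 2D library, and the log2 fold change was -0.29 ± 0.10 (adjusted p = 0.036).

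The lowest ACO1 value of HCT116 was that of 3D replicate 1, the library with 6.40% mitochondrial counts, and without it the log2 fold change was -0.18 (adjusted p = 0.21). The call in HCT116 was also lost without 3D replicate 2 (adjusted p = 0.059), 2D replicate 1 (adjusted p = 0.13) or 2D replicate 2 (adjusted p = 0.096), and that in LS513 without 2D replicate 1 (adjusted p = 0.074) or 3D replicate 1 (adjusted p = 0.057). In HT29 ACO1 was between 35.3 and 38.9 CPM in 2D and between 37.2 and 45.6 CPM in 3D (adjusted p = 0.14), and it was 0.29 higher on the log2 scale and called (adjusted p = 0.046) without 3D replicate 3. Over all runs with 1 HT29 library left out, its log2 fold change ranged from 0.15 to 0.29, with adjusted p up to 0.35. In LS174T it was between 101 and 113 CPM in all 6 libraries. LS174T had the highest and HT29 the lowest ACO1 level in 2D and in 3D, and all neighbours in the order of lines differed in both.

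IREB2 (ENSG00000136381, chr15:78437431-78501456, plus strand) encodes iron regulatory protein 2, which is controlled by its degradation. Its transcript fell in HT29 and in HCT116. It stood at 129, 132 and 148 CPM in 2D and at 78.0, 88.0 and 103 CPM in 3D in HT29, and at 66.7, 90.2 and 95.8 CPM in 2D and at 52.0, 56.6 and 61.8 CPM in 3D in HCT116. The 3D libraries were below all 2D libraries in both lines, with log2 fold changes of -0.60 ± 0.19 (SE, adjusted p = 0.013) and -0.57 ± 0.19 (adjusted p = 0.026). The call in HT29 was lost without 2D replicate 3 (adjusted p = 0.065) or 3D replicate 3 (adjusted p = 0.063), and that in HCT116 without replicate 1 or 2 of either growth condition (adjusted p between 0.069 and 0.12).

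In LS513 IREB2 was at 57.0, 61.2 and 65.3 CPM in 2D and at 41.9, 44.3 and 65.8 CPM in 3D, and in LS174T at 107, 117 and 122 CPM in 2D and at 57.3, 88.5 and 115 CPM in 3D. In each line 1 library grown in 3D reached the 2D range, and the log2 fold changes were -0.27 ± 0.19 (adjusted p = 0.33) and -0.41 ± 0.19 (adjusted p = 0.12). Without LS174T 3D replicate 3, the library at 115 CPM, the log2 fold change in LS174T was -0.66 (adjusted p = 0.0098). Over all runs with 1 LS174T library left out, it ranged from -0.66 to -0.17, with adjusted p up to 0.58. The number of ACO1 counts for each IREB2 count went from 0.274 ± 0.0205 in 2D to 0.478 ± 0.0374 in 3D (SD, n = 3) in HT29 and from 1.00 ± 0.0386 to 1.58 ± 0.307 in LS513, with no overlap in either. It was between 0.823 and 1.09 in 2D and between 0.994 and 1.17 in 3D in HCT116, and between 0.926 and 0.943 in 2D and between 0.951 and 1.85 in 3D in LS174T.

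The difference of the growth effect between lines was tested directly by the interaction of line and growth. It passed the test for 5 of the 8 members other than SLC40A1, against 17.1% of all tested genes. The adjusted p was 3.8e-08 for SLC11A2, 1.4e-04 for FTH1, 0.0018 for TFRC, 0.013 for ACO1 and 0.024 for FTL. For STEAP3 (adjusted p = 0.56), NCOA4 (0.50) and IREB2 (0.75) no difference between lines passed the test. The interaction of SLC40A1 could not be read, since its counts outside HT29 were between 0 and 13.

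Between HT29 and LS513, in which TFRC and FTH1 went opposite ways, 2 of these 8 members passed the pairwise test, against 12.1% of all genes. The growth effect of HT29 minus that of LS513 was -0.95 ± 0.17 on the log2 scale for TFRC (SE, adjusted p = 3.8e-04) and -1.32 ± 0.21 for FTH1 (adjusted p = 9.5e-05). For SLC11A2 the same difference was -0.24 (95% interval -0.59 to 0.11), so that a small difference between these lines cannot be told from none.

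SLC11A2 differed in its growth effect between HT29 or LS513 on one side and HCT116 or LS174T on the other in all 4 pairs. The difference was 1.61 ± 0.17 for HT29 minus HCT116 and 1.30 ± 0.17 for HT29 minus LS174T (adjusted p = 7.2e-07 and 2.6e-05), and 1.85 ± 0.17 for LS513 minus HCT116 and 1.54 ± 0.17 for LS513 minus LS174T (adjusted p = 2.7e-07 and 7.1e-06). In HT29 minus HCT116, FTL (-0.94 ± 0.23, adjusted p = 0.0097) and ACO1 (0.49 ± 0.15, adjusted p = 0.043) also passed, which made 3 of 8 members against 7.76% of all genes. In HT29 minus LS174T, SLC11A2 was the 1 member of 8 that passed (6.65% of all genes). ACO1 was the other member of 2 that passed in LS513 minus HCT116 (0.64 ± 0.15, adjusted p = 0.011, 4.34% of all genes), and TFRC (0.64 ± 0.17, adjusted p = 0.031) and FTH1 (1.23 ± 0.21, adjusted p = 6.4e-04) passed with SLC11A2 in LS513 minus LS174T (3.62% of all genes). In HCT116 minus LS174T, edgeR called 0 of 8 members (4.75% of all genes), and 1 had an unadjusted p under 0.05, which was FTH1 (0.56 ± 0.20, adjusted p = 0.14).

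The 8 tested members other than SLC40A1 all differed in level between the lines in 2D and in 3D, and the level of SLC40A1 in HT29 is what let it pass the filter. A difference between lines was found for 91.7% of all tested genes in each growth condition, and between 57.6% and 68.8% of all genes differed in each pair of lines.

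The members were set beside 77 further genes of iron handling in 6 lists, of which 69 could be tested. Like the members, these lists were chosen with earlier results of these data known. In HT29, 18 of these genes rose and 12 fell in 3D (43.5% called, against 40.7% of all genes), in LS513 12 rose and 3 fell (21.7% against 23.6%), and in HCT116 14 rose and 7 fell (30.4% against 29.1%), shares close to those of all genes. In LS174T 6 rose and 1 fell, 10.1% against 22.2% of all genes. The balance depended on the scaling, since with library totals alone 7 rose and 7 fell in LS513, 6 rose and 16 fell in HCT116 and 4 rose and 8 fell in LS174T. The balance of all genes moved as well. In the main fit 2651 of 4571 called genes rose in LS513, 3253 of 5637 in HCT116 and 2531 of 4305 in LS174T. With library totals these were 1909 of 5310, 2571 of 6081 and 1721 of 4658. The median log2 fold change of the 69 genes was 0.00 in HT29 and 0.08 in LS513, and 0.0021 in HCT116 and 0.11 in LS174T.

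Among the 12 tested genes of heme synthesis and breakdown, 6 rose in HT29, 4 rose in LS513, 7 rose in HCT116 and 2 rose in LS174T, and the others were not called. These were 50%, 33.3%, 58.3% and 16.7% of the list, against 21.1%, 13.7%, 16.8% and 13.1% of all genes that were higher in 3D, and the share in LS174T was near that of all genes. With library totals alone 6, 3, 2 and 2 of these genes rose, and the remainder were again not called. The median log2 fold change of this list was 0.44 in HT29 and 0.22 in LS513, and 0.29 in HCT116 and 0.17 in LS174T. BLVRB, a biliverdin reductase, rose in all 4 lines, by 0.76 ± 0.16 on the log2 scale in HT29 and 0.69 ± 0.16 in LS513, and by 1.09 ± 0.16 in HCT116 and 0.67 ± 0.16 in LS174T (SE, adjusted p between 2.4e-05 and 0.0046). BLVRA, the major biliverdin reductase of adult tissue, rose by 1.13 ± 0.16 in LS513, from 11.8 to 25.8 CPM, and by 0.45 and 0.49 in HT29 and HCT116. ALAS1, the first enzyme of heme synthesis, rose by 0.57 ± 0.07 in LS513, 0.23 ± 0.07 in HCT116 and 0.32 ± 0.07 in LS174T. Under library totals, the rises of ALAS1 (adjusted p = 0.14) and BLVRA (0.055) in HCT116 were not called, and without the filter on low counts those of ALAS1 in HCT116 (0.35) and LS174T (0.053) were not.

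HMOX1, the inducible heme oxygenase that frees iron from heme, had a mean of 54.1 CPM in 2D and 124 CPM in 3D in HCT116 (log2 fold change 1.20 ± 0.44, SE, adjusted p = 0.049). Its log2 fold changes of 1.08 in HT29 and 1.22 in LS513 had adjusted p of 0.069 and 0.058, and in LS174T it was -0.35 (adjusted p = 0.69). These calls depended on the fit: in HCT116 the adjusted p was 0.053 with library totals, and without the filter on low counts it was 4.1e-14 in HT29 and 3.5e-17 in LS513.

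**Figure D4:**
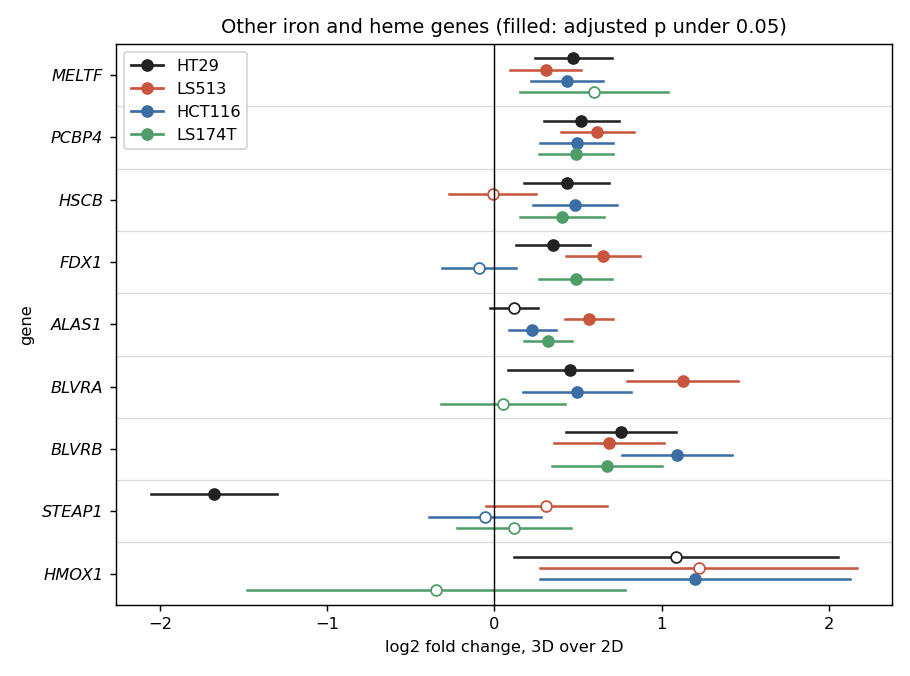
Log2 fold change of 3D over 2D, with its 95% interval, for the iron and heme genes called one way in at least 3 lines or with the largest called change in a line, filled where the adjusted p was under 0.05. PCBP4 and BLVRB are filled above 0 in all 4 lines, and STEAP1 lies below 0 in HT29 at -1.67.

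Of the 24 tested genes of mitochondrial iron and iron-sulfur cluster assembly, 6 rose and 3 fell in HT29, 2 rose in LS513, 1 rose and 4 fell in HCT116, and 2 rose in LS174T. The shares called were 37.5%, 8.33%, 20.8% and 8.33%, against 40.7%, 23.6%, 29.1% and 22.2% of all genes, and the share in HT29 was near that of all genes. The balance turned with library totals, under which 2 rose and 4 fell in LS513, 1 rose and 7 fell in HCT116 and 1 rose and 4 fell in LS174T. With these totals the balance of all called genes turned in the same lines, from more higher to more lower in 3D. HSCB, a cochaperone of cluster transfer, rose by 0.43, 0.48 and 0.40 on the log2 scale in HT29, HCT116 and LS174T and was at -0.01 in LS513, and the rise in LS174T was not called with library totals (adjusted p = 0.070). Without the filter on low counts, neither that rise (0.11) nor the one in HCT116 (0.052) was called. FDX1, a mitochondrial ferredoxin, rose by 0.35, 0.65 and 0.49 in HT29, LS513 and LS174T and was at -0.09 in HCT116 (adjusted p = 0.57).

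Among the other uptake and reduction genes, 13 were tested, and 2 rose and 5 fell in HT29, 2 rose and 2 fell in LS513, 3 rose and 1 fell in HCT116, and 1 rose in LS174T. The shares called were 53.8%, 30.8%, 30.8% and 7.69%, against 40.7%, 23.6%, 29.1% and 22.2% of all genes. With library totals the calls were 2 lower in LS513, 1 higher and 3 lower in HCT116 and 2 lower in LS174T, so that the balance outside HT29 depended on the scaling. In these lines library totals also turned the balance of all called genes, from more higher to more lower in 3D. STEAP1, a member of the same family as STEAP3, went from 9.37 CPM in 2D to 2.95 CPM in 3D in HT29 (-1.67 ± 0.18 on the log2 scale, SE, adjusted p = 3.1e-07). MELTF, a membrane protein of the transferrin family, rose by 0.47, 0.31 and 0.43 on the log2 scale in HT29, LS513 and HCT116. In LS174T it was 0.60 higher but not called (adjusted p = 0.073). The rise in LS513 was not called with library totals (adjusted p = 0.22) or without the filter (0.10). Its level differed widely among the lines in which it was called, with 12 CPM in HT29, 152 CPM in LS513 and 28.6 CPM in HCT116 in 2D.

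Of the 6 tested genes of storage and iron chaperones, 2 rose and 1 fell in HT29 (50% called, against 40.7% of all genes). In each of the other lines 1 rose (16.7%, against 23.6%, 29.1% and 22.2%). With library totals 1 rose and 3 fell in HCT116, where 2571 of all 6081 called genes rose. The gene that rose in each line other than HT29 was PCBP4, of the family of poly(C)-binding proteins to which the ferritin iron chaperones belong. Its log2 fold changes were 0.52, 0.62, 0.49 and 0.49 in HT29, LS513, HCT116 and LS174T (adjusted p between 1.5e-04 and 0.0025). In the list of export, ferroxidases and hepcidin, 7 of 12 genes could be tested, with 2 higher and 1 lower in HT29, 2 higher and 1 lower in LS513, and 1 higher and 1 lower in HCT116 (42.9%, 42.9% and 28.6% called, against 40.7%, 23.6% and 29.1% of all genes). In LS174T 0 of these 7 genes were called, against 22.2% of all genes. HEPH, the membrane ferroxidase that works with ferroportin in the intestine, was chosen for description after its values were seen. It was at 3.03 CPM in 2D and 6.11 CPM in 3D in HT29, at 155 and 197 CPM in LS513 and at 151 and 151 CPM in LS174T. In HCT116 it was near the floor, with between 0 and 2 counts in the 2D libraries and between 4 and 11 in the 3D libraries, and it was the gene called higher there. In HT29 HEPH rose by 0.98 ± 0.20 on the log2 scale (SE, adjusted p = 4.6e-04), and in LS513 and LS174T its log2 fold changes had adjusted p of 0.11 and 1.0. Of the 7 other sensing genes, 2 fell in HT29, 1 rose in LS513, 1 rose and 1 fell in HCT116, and 1 fell in LS174T. The shares called were 28.6%, 14.3%, 28.6% and 14.3%, against 40.7%, 23.6%, 29.1% and 22.2% of all genes. In a list of 7, 1 gene makes 14.3%, and the share in HCT116 was near that of all genes.

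The genes whose pattern over the 8 group means was most like that of a member were sought among 14614 genes, as a description over means that share lines. For TFRC these were SPRR3 (r = 0.985) and RAB10 (r = 0.984), and for FTH1 CLCN6 (r = 0.910) and MGRN1 (r = 0.851). For SLC40A1, whose pattern is set by its level in HT29, they were QPCT and FREM2 (r = 0.999 for both).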

How the data were processed

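RNA sequencing of poly(A) RNA was done on 24 stranded libraries from 4 CRC lines grown in 2D and 3D. For every technical replicate the authors deposited a table of raw counts by gene, made, per the labels and methods, with Trim Galore 0.4.1, STAR and HTSeq 0.5.3 after removal of reads that aligned more than once. The labels name hg19, the methods an Ensembl annotation of GRCh38. Names and positions here come from GENCODE 29 on GRCh38, which held 57980 of the 58243 identifiers. Technical replicates were summed, 8 per library and 7 for HT29 3D replicate 4, 1 of which was not analysed here. They were runs of the same library, with a median chi-square per degree of freedom between 0.905 and 0.933, and all libraries were run together in each, so no sequencing run separates groups. Batches of culture, extraction and library preparation are not given in the sources used here.

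The counts were tested with edgeR 4.0.16 in R 4.3.3 (filterByExpr, which kept 19387 genes, TMM scaling, and a quasi-likelihood model with robust dispersion and 8 group coefficients). CPM are on the TMM scale, RPKM are CPM per kilobase of all exons of a gene, and intervals of fold changes are 95% intervals from the t distribution of the fit. Likeness used log2 CPM with a pseudocount of 1. Calls were made at a Benjamini-Hochberg adjusted p under 0.05. A single value compared by exact permutation of 3 against 3 libraries cannot go below p = 0.10, so such tests were not used. Alternatives were other scalings, no filter, DESeq2 1.42.0, a replicate block, the 6 libraries of a line alone, the study's fold cutoffs, and each library left out. The fit was tested on simulated data. Counting error only is covered by the floor of 3 counts.

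The 10 genes and the lists were chosen with earlier results of these data known. All 10 genes are described, with the other iron genes called one way in at least 3 lines or with the largest called change in a line at 1 CPM or more, the 2 genes most like TFRC, FTH1 and SLC40A1, and genes that overlap a member or copy a ferritin. Replicate numbers were not taken to pair the samples, since the labels do not say that they do. The correlation of deviations within same-numbered pairs was between -0.24 and 0.36. With 2 or 3 such pairs per line, these values cannot exclude pairing.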

Additional observations from a re-analysis of the deposited data

Results flagged for a closer look

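The growth effect differed between the 4 lines in a direct test of line by growth for 5 of the 8 tested iron genes other than SLC40A1, against 17.1% of all tested genes. The adjusted p was 0.0018 for TFRC, 3.8e-08 for SLC11A2, 1.4e-04 for FTH1, 0.024 for FTL and 0.013 for ACO1 (edgeR). TFRC and FTH1 were lower in 3D in HT29 and higher in LS513. SLC11A2 was higher in 3D in HT29 and LS513, FTL in LS513, HCT116 and LS174T, and ACO1 was higher in LS513 and lower in HCT116. The difference between lines was no longer past the threshold for FTL without any of 4 HT29 libraries (2D replicate 1 or 2, 3D replicate 1 or 4, adjusted p between 0.051 and 0.081).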

How the results depend on the processing

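The calls of TFRC and SLC11A2 in HT29 and LS513, of FTH1 in LS513, of FTL in HCT116 and of SLC40A1 in HT29 held under every alternative run other than the study's fold cutoffs. Those of SLC11A2 held under these cutoffs too. Of 198 values under other settings for 33 pairs of member and line, 177 kept their direction and side of the threshold, 7 lost and 6 gained a call and 8 reversed; of 198 with 1 library left out, these were 166, 18, 4 and 10. The member calls in LS174T numbered 3 in place of 1 with library totals alone or without the filter and 0 with its 6 libraries alone (in edgeR, as by the study's cutoffs), where the wider list had 12 with totals and 1 with 6 libraries. In that line 4658 of 19387 genes were called with totals and 4631 of 36442 without the filter, and the share with 6 libraries was not counted. With the study's fold cutoffs, members called were 2, 1, 1 and 0 in HT29, LS513, HCT116 and LS174T, against 17.4%, 8.03%, 9.28% and 7.26% of all genes, and the wider list 7, 2, 2 and 1. With a replicate block, 3 growth effects differed between lines, without those of FTL and ACO1 (adjusted p = 0.12 and 0.091), and the share of all genes for this test was not counted. FTH1 in HT29 (adjusted p = 0.26) and ACO1 in LS513 (0.051) and HCT116 (0.071) were not called with the block. At most 2 of 6 libraries of a line correlated best with their own number. Under the block, HSCB in HT29 (0.067) and LS174T (0.055), FDX1 in HT29 (0.054), ALAS1 in HCT116 (0.063), BLVRA in HT29 (0.18) and MELTF in LS513 (0.075) were not called. The called genes of mitochondrial iron in HT29 were then 4 in place of 9, and those of all 19387 genes 5415 in place of 7887. NCOA4 in HT29 was called with DESeq2 size factors (adjusted p = 0.033) and with DESeq2 (0.016), FTH1 and STEAP3 in LS174T with library totals (0.0095 and 0.039), and FTH1 and IREB2 in LS174T without the filter (0.015 and 0.0091). ACO1 was not called with totals in LS513 (0.16) or, in HCT116, without the filter (0.053) and with 6 libraries (0.075), nor FTL in LS174T with 6 libraries (0.12). None of the reversals was of a called value. STEAP3 in HT29 (-0.0036) was 0.033 with DESeq2 size factors, 0.012 with totals, 0.042 without the filter, 0.032 with DESeq2 and 0.0048 with 6 libraries, and with totals STEAP3 was -0.12 in LS513 and -0.016 in HCT116 and NCOA4 -0.045 in LS174T. With 1 library left out, log2 fold changes ranged from -0.080 to 0.078 for STEAP3 in HT29, -0.024 to 0.081 for STEAP3 and -0.081 to 0.011 for NCOA4 in LS513, -0.16 to 0.017 for TFRC and -0.11 to 0.037 for SLC11A2 in HCT116, and -0.073 to 0.010 for ACO1 in LS174T. Member calls then ranged from 1 to 3 in HCT116 and from 0 to 2 in LS174T, and those of the wider list from 13 to 18 (13 without 2D replicate 1 or 3D replicate 1) and from 5 to 19 (19 without 3D replicate 3). The level tests had no block fit, since the block is nested in line. Except where stated, the cause was not tested. A growth effect of SLC40A1 outside HT29 or of TF was not detectable at this depth.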
